A study of Mus musculus with 6 samples.

Results

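The 9 genes described here relay the loss of motor nerve input to the nuclei of a muscle fibre, or mark it. They are Runx1, Gadd45a, Gadd45b, Gadd45g, Ncam1, Hdac4, Hdac5, Hdac9 and Dach2. Their probes were found by gene name or by the RefSeq accession printed for the probe. This gave 15 of the 55681 probes on the array, and all 9 genes had at least 1. RNA was taken from the gastrocnemius, a calf muscle, at 13 weeks of age (young, 3 mice) or 26 months of age (aged, 3 mice), and 1 single-colour array was hybridized per mouse. All 6 mice were male, the study's methods give the strain as C57BL/6J, and no treatment or engineered allele is named for either group. The genes were chosen by the difference in processed signal between aged and young mice on these same arrays. Their values are therefore given as a description, and no p is given for any of the 9. They were part of the limma fit over all genes, and their calls in it are given as counts only.

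Motor nerves keep the genes of synaptic and embryonic muscle silent along most of a fibre, and that block is lifted when the nerve is cut or the fibre falls idle. In the best known route, the class IIa histone deacetylase Hdac4 enters the nuclei and represses Dach2. Dach2 in turn represses myogenin, so that myogenin becomes free to switch on the acetylcholine receptor genes. Runx1 and Gadd45a are transcribed strongly after denervation, and the adhesion molecule Ncam1 spreads from the synapse over the whole fibre surface.

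Signals are given as log2 of the processed intensity relative to the 75th percentile of the same array, so that 0 is a probe as bright as that percentile. Values of single mice are given in the order of mouse 1, 2 and 3. Values of different probes cannot be ranked against each other. The 75th percentile itself lay between 243 and 366 intensity units. The share of probes brighter than background by the scanner software's test ran from 48.7% to 53.8%, the latter on the array of aged mouse 1, and saturation was not seen. Of the 9 muscle fibre markers tested, 8 read between 8.40 (Myh1) and 10.12 (Tnnt3, a fast troponin and the brightest) on all arrays, and Mylpf, a fast myosin light chain, read 1.96 to 5.20. In whole muscle, fewer cells of a type and less RNA per cell cannot be told apart.

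Of the 9 genes, 4 had all 3 aged mice above all 3 young mice. These were Runx1, Gadd45a, Ncam1 and Hdac4. Such separation was seen for 7.92% of the 20900 genes tested on the array. For 1 gene, Gadd45b, all aged mice lay below all young mice, as they did for 13.9% of all genes. The groups overlapped for Gadd45g, Hdac5, Hdac9 and Dach2. All 9 genes passed the filter on dim probes, and on every array the probe that represents each gene was detected above background. None of the 9 had an adjusted p under 0.05 in limma, a threshold passed upwards by 0.196% and downwards by 0.0574% of all genes. At an unadjusted p under 0.05, limma counted 4 of the 9 as higher, against 6.07% of all genes, and 2 as lower, against 8.36%. Since the same contrast chose the genes, nothing is read from these counts.

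**Figure D1:**
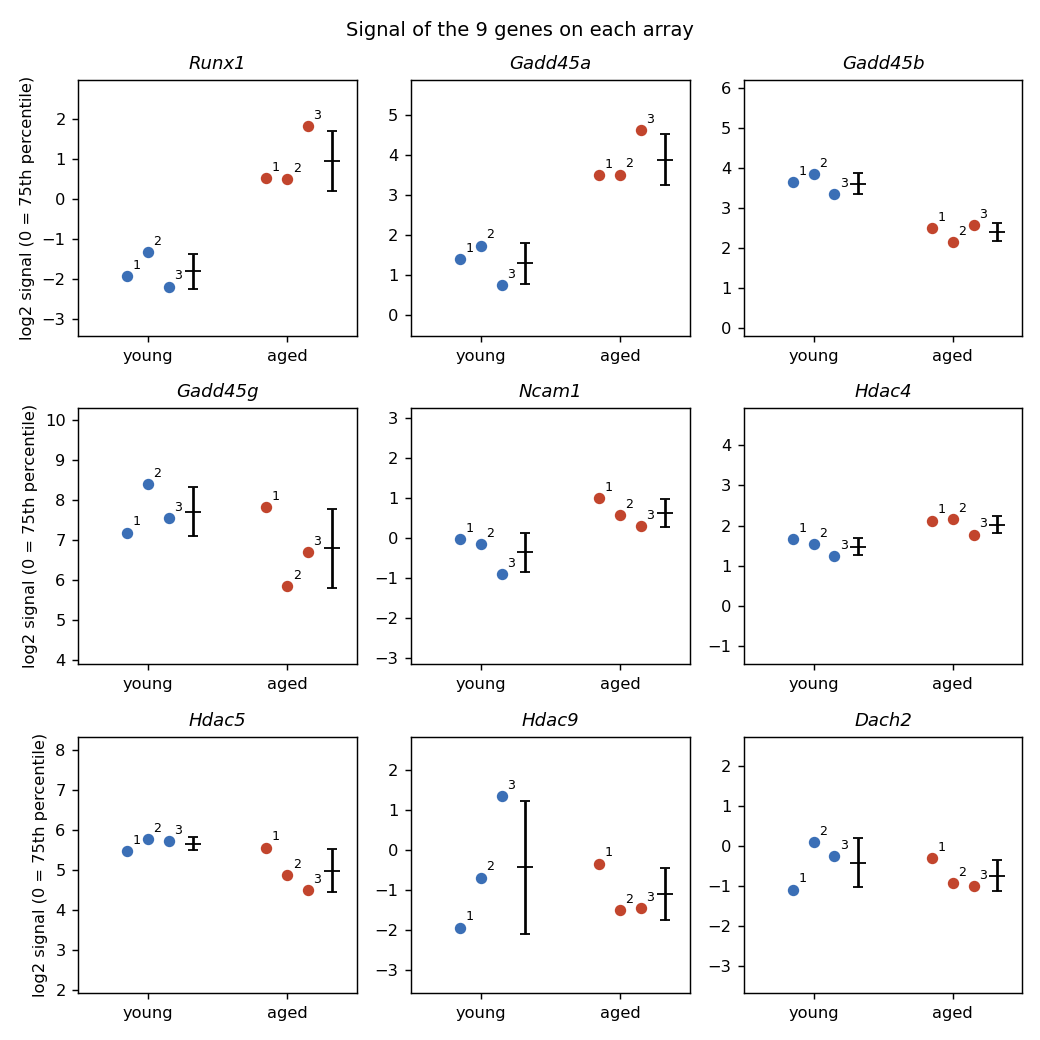
Log2 signal of each of the 9 genes on each array, relative to the 75th percentile of the array (0 on the vertical axis), with young mice in blue, aged mice in red and the mouse number beside each point. Black bars are the group mean and SD (n = 3), and every panel spans the same range. The groups are apart for Runx1, Gadd45a, Gadd45b, Ncam1 and Hdac4, while aged mouse 1 sits among the young mice for Gadd45g and Hdac5.

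Runx1 encodes a DNA-binding runt-domain transcription factor that is scarce in innervated fibres and limits the wasting of denervated ones. It showed the largest difference of the 9 genes. Its signal was -1.92, -1.31 and -2.18 in the young group. In the aged group it was 0.53, 0.51 and 1.82. The lowest aged mouse was thus well clear of the highest young mouse, and aged mouse 3 stood above the other two. The mean was -1.80 ± 0.45 (SD, n = 3) in young and 0.95 ± 0.75 (SD, n = 3) in aged mice, a 6.75-fold higher signal (log2 difference 2.75, standard error 0.50). A larger positive difference was found for 0.263% of the 20900 genes. A second probe, designed on another Runx1 transcript (NM_009821), read -2.40, -2.77 and -3.10 in young mice and 0.15, 0.62 and 2.08 in aged mice. It gave 13.1-fold, with aged mouse 3 again the highest, so the probes differed in size but not in direction.

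Runx1 is transcribed from separate start sites, and the stretches before them are shown because they differ in composition. They are the 250 bases upstream of each RefSeq start in GRCm38.p6, written 5′ to 3′, with every E-box (CANNTG on either strand, the core bound by myogenin and related factors) in capitals. The probes do not tell which start was used.
Runx1 first start (chr16:92826075-92826324, minus strand): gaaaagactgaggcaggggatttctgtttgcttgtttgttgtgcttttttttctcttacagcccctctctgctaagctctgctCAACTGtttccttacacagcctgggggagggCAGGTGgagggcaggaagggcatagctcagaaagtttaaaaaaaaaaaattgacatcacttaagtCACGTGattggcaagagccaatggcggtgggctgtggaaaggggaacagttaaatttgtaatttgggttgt
Runx1 second start (chr16:92697330-92697579, minus strand): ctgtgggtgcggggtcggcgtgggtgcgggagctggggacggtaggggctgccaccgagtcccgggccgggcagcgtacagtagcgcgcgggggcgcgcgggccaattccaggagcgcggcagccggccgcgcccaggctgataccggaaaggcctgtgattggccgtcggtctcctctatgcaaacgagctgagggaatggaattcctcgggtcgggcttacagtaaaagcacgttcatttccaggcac
The first stretch held 3 E-boxes and was 45.6% G or C. The second held 0 and was 67.6% G or C. An E-box is a common match, found in 66.2% of the 32851 stretches of this length in the RefSeq table. The RUNX core (TGTGGT on either strand), present in 14.0% of them, was in neither.

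The Gadd45 genes encode small acidic proteins of the stress response that bind the kinase Map3k4 and components of the cell cycle and DNA repair machinery. Gadd45a is the form known to be induced in denervated and fasting muscle, where it represses genes of anabolism. The 3 paralogs did not share a direction in these arrays. Gadd45a was 1.38, 1.73 and 0.73 in the young group and 3.50, 3.50 and 4.61 in the aged group. As with Runx1, aged mice 1 and 2 were nearly level and aged mouse 3 was the highest. The means of 1.28 ± 0.51 and 3.87 ± 0.64 (SD, n = 3 each) corresponded to a 6.01-fold higher signal in aged mice (log2 difference 2.59, standard error 0.47).

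Gadd45b, an early stress-response gene, differed the other way. It was 3.65, 3.85 and 3.34 in young mice and 2.50, 2.14 and 2.58 in aged mice, and the spread within each group was small. The means were 3.61 ± 0.26 and 2.41 ± 0.23 (SD, n = 3 each), or 0.433-fold in aged mice (log2 difference -1.21, standard error 0.20). Gadd45g, the paralog whose forced expression arrests the cell cycle in several cell types, was 7.19, 8.39 and 7.55 in young mice. In aged mice it was 7.83, 5.85 and 6.70. Aged mouse 1 lay within the young range and aged mice 2 and 3 below it. The mean in aged mice was 0.530-fold that in young mice, but its log2 difference of -0.92 had a standard error of 0.68.

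The promoters of the 3 paralogs are printed beside each other because their signals went apart. E-boxes are again in capitals.
Gadd45a (chr6:67037408-67037657, minus strand): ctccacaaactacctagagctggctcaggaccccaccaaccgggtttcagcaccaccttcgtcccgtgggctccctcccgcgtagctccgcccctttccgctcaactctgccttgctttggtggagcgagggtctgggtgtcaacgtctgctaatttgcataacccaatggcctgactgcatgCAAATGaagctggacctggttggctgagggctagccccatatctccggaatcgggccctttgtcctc
Gadd45b (chr10:80929841-80930090, plus strand): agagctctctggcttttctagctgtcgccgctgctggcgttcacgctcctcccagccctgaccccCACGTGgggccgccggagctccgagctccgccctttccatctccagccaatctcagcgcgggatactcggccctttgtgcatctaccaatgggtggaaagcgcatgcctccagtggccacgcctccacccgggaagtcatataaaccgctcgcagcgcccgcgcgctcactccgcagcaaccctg
Gadd45g (chr13:51846425-51846674, plus strand): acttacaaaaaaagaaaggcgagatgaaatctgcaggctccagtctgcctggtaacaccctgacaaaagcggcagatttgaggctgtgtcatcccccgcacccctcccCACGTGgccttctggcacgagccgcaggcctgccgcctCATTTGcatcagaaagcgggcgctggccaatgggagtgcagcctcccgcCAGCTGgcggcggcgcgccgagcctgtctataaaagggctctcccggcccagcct
Gadd45a held 1 E-box, which began 67 bases before the start, and Gadd45b held 1, at 185 bases. Gadd45g held 3, the nearest at 55 bases. A match to the core read by ATF4, a stress-induced activator of Gadd45a (TGATGNAA on either strand), occurred in Gadd45g, where it began 101 bases before the start and shared bases with the middle E-box. It was in neither Gadd45a nor Gadd45b in this window, and in 3.45% of all stretches.

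Ncam1 encodes the neural cell adhesion molecule, which in innervated muscle is concentrated at the synapse and on satellite cells. Its probes disagreed. The probe that represents the gene, on transcript NM_010875, had the highest mean over the 6 arrays and read -0.01, -0.14 and -0.90 in young mice and 1.004, 0.59 and 0.31 in aged mice. The groups were separate, and the means of -0.35 ± 0.48 and 0.63 ± 0.35 (SD, n = 3 each) gave 1.98-fold (log2 difference 0.98, standard error 0.34). A dimmer probe on the same transcript read -1.35, -1.99 and -3.08 in young and -0.37, -0.85 and -1.43 in aged mice, or 2.39-fold, with aged mouse 3 just below young mouse 1. The probe on transcript NM_001113204 went the other way. It had the higher mean on the young arrays alone (-0.01), so the choice of the representing probe, and with it the place of Ncam1 among the 4 separated genes, rests on the aged arrays. It read -0.03, -0.02 and 0.03 in young mice, and 0.03, -0.60 and -0.75 in aged mice, or 0.739-fold, and aged mouse 1 equalled the young mice. The statement that Ncam1 was higher in aged mice thus holds for the probes on NM_010875 and not for the probe on NM_001113204.

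**Figure D2:**
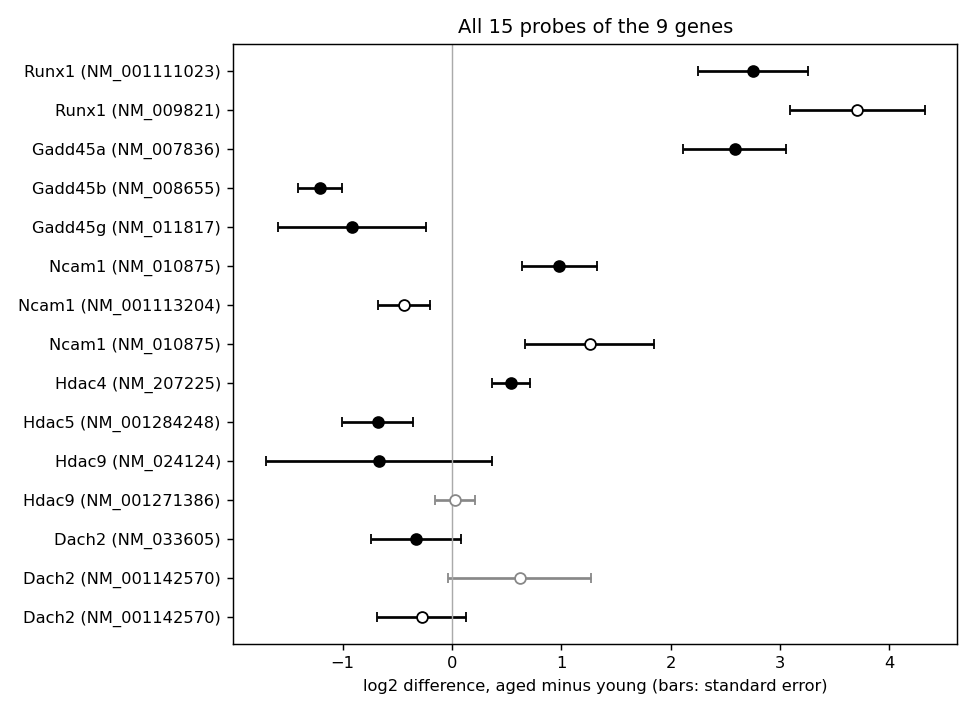
Log2 difference (aged minus young) of all 15 probes of the 9 genes, with the standard error of the difference as bars and the transcript each probe is named for. Filled points are the probes that represent a gene, and grey points are probes not well above background on all 6 arrays. Both Runx1 probes lie far to the right (2.75 and 3.71), and the 3 Ncam1 probes fall on both sides of 0 (0.98, 1.26 and -0.44).

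Class IIa deacetylases bind Mef2 factors and hold their target genes silent, and they leave the nucleus when kinases phosphorylate them. Hdac4 is the member that accumulates in the nuclei of denervated fibres. Its signal was 1.65, 1.53 and 1.23 in young mice and 2.12, 2.15 and 1.77 in aged mice. The gap between young mouse 1 and aged mouse 3, the nearest of the groups, was small. The means were 1.47 ± 0.22 and 2.02 ± 0.21 (SD, n = 3 each), a 1.46-fold higher signal in aged mice (log2 difference 0.54, standard error 0.17).

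Hdac5, a paralog that also restrains Mef2, was 5.48, 5.78 and 5.73 in young mice. In aged mice it was 5.57, 4.87 and 4.51. Aged mouse 1 lay inside the narrow young range and aged mice 2 and 3 below it. The mean was 0.624-fold in aged mice (log2 difference -0.68, standard error 0.32). Hdac9, whose short form lacks the catalytic domain and whose transcript is known to decline after denervation, was -1.94, -0.69 and 1.35 in young mice. In aged mice it was -0.34, -1.50 and -1.45, all within the young range. The log2 difference of -0.67 was smaller than its standard error of 1.03, because the young mice were so far apart. Another Hdac9 probe (NM_001271386) was not well above background on any array.

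The stretch before the Hdac5 start is shown for its MEF2 motif, in capitals, the A- and T-rich site of the factors that class IIa deacetylases restrain. It carried the only match to the MEF2 consensus, on either strand, among the 11 stretches that the RefSeq table held for 8 of the 9 genes.
Hdac5 (chr11:102230173-102230422, minus strand): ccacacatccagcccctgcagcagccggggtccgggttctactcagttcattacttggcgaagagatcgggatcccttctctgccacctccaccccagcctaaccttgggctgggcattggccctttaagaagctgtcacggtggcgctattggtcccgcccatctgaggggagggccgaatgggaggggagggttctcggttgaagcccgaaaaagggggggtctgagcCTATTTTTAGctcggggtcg
The match began 20 bases before the start. The consensus was found in 2.92% of all stretches.

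Dach2, the corepressor of myogenin that Hdac4 represses, did not separate the groups. It was -1.09, 0.09 and -0.26 in young mice and -0.31, -0.93 and -0.998 in aged mice, with young mouse 1 the lowest of the 6. The mean was 0.797-fold in aged mice (log2 difference -0.33, standard error 0.41). A second probe well above background on all arrays (NM_001142570) gave 0.824-fold. A dimmer probe on the same transcript, well above background on 1 young and 2 aged arrays, gave a log2 difference of 0.62 with a standard error of 0.65.

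The arrays were on 1 slide. All 3 young mice and aged mouse 1 were in row 1 of the slide, and aged mice 2 and 3 were in row 2. Blocking on that row, the difference rests on aged mouse 1 alone against the young mice. It was then 2.33 for Runx1, 2.21 for Gadd45a, -1.11 for Gadd45b, 1.35 for Ncam1 and 0.65 for Hdac4. The groups of these 5 genes are separate, so the sign of this value could not change, and nothing is read from it. For the other 4 the value came close to 0, at 0.12 for Gadd45g, -0.10 for Hdac5, 0.09 for Hdac9 and 0.11 for Dach2. The lower Gadd45g and Hdac5 signals were therefore found in the aged mice of row 2 and not in the aged mouse of row 1. Row and mouse cannot be told apart for these genes. Groups that are separate stay so when a mouse is left out, so this was bound to hold for Runx1, Gadd45a, Ncam1, Hdac4 and Gadd45b. When 1 mouse at a time was left out, Gadd45g and Hdac5 became separate without aged mouse 1, and Hdac5 and Dach2 without young mouse 1. The share of all genes with the aged mice below the young ones was also larger then, at 23.3% without aged mouse 1 and 20.3% without young mouse 1, so nothing is read from these additions.

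**Figure D3:**
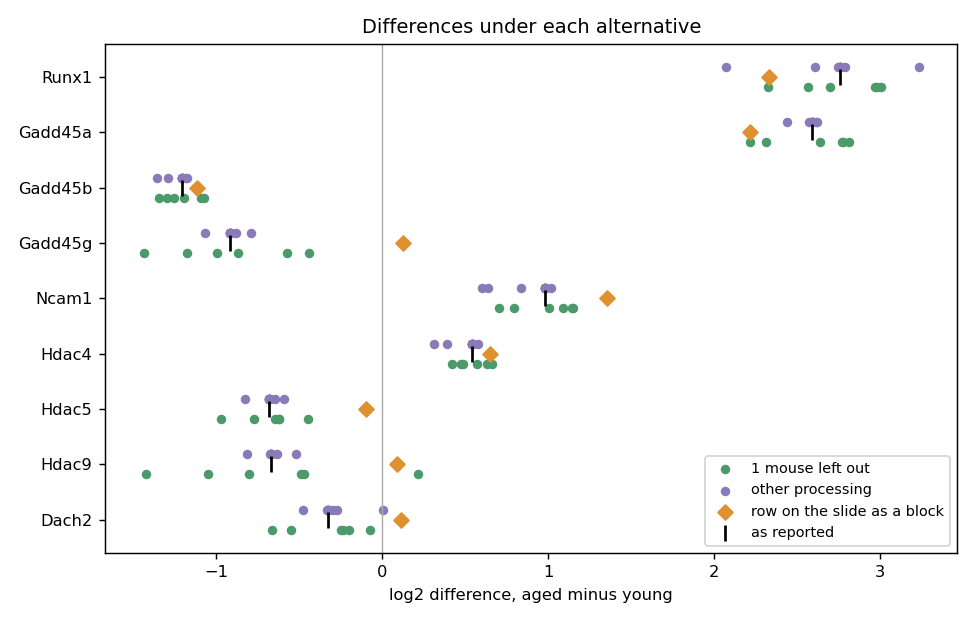
Log2 difference (aged minus young) of the 9 genes as reported (black tick), with 1 mouse left out (green), with other background, scaling, filter, probe or model settings (purple) and blocked on the slide's row (orange diamond). Runx1, Gadd45a, Ncam1 and Hdac4 stay right of 0 and Gadd45b left of it under every setting drawn. The groups of these genes are separate, so their green points and orange diamonds could not cross 0. The orange diamonds of Gadd45g (0.12), Hdac9 (0.09) and Dach2 (0.11) cross 0. No setting drawn used the Ncam1 probe on NM_001113204 alone, which went the other way.

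The genes that act with these 9 were followed through 8 lists of 75 genes, of which 68 could be tested with limma over all 20900 genes. One gene, Sik1, passed the adjusted threshold. Sik1 encodes a kinase that phosphorylates class IIa deacetylases and so releases Mef2. It was -0.25, -0.13 and -0.34 in young mice and 1.37, 1.37 and 1.36 in aged mice. The aged mice were almost identical and far above the young ones, and the signal was 3.04-fold higher (log2 difference 1.60, adjusted p = 0.0214 from limma). Over the alternatives its adjusted p ran from 0.0101 to 0.111 while its log2 difference stayed between 1.37 and 1.66. It was above the threshold in 9 of 18 alternatives, among them the removal of any mouse except aged mouse 1. At an unadjusted p under 0.05, limma counted 11 of the 68 genes as higher, against 6.07% of all genes, and 5 as lower, against 8.36% of all genes. The 11 include Chrng, which passed the filter on dim probes through the aged arrays alone. The median log2 difference of the 68 genes was -0.06, and the median of all genes tested was -0.06 too.

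Of the 10 kinases tested that act on class IIa deacetylases, 2 had a higher mean in aged mice, Sik1 and Camk2b (0.45), a calcium-dependent kinase. The other 8 had a lower mean, among them Prkd2 (-0.74), a protein kinase D, and the median of the list was -0.32. Camk2d counted as lower by a probe at -0.08, while its other probes gave 0.45 and 0.58. In limma, Camk2b and Prkd2 had an unadjusted p under 0.05 and neither passed the adjusted threshold. Of the 10 genes of myogenin and its denervation targets, 0 passed the adjusted threshold in limma, 6 had an unadjusted p under 0.05, all higher, and the median was 1.07. Myogenin itself (Myog) was -0.23 ± 0.28 (SD, n = 3) in young and 2.24 ± 1.14 (SD, n = 3) in aged mice, at 1.12, 2.20 and 3.39 in aged mice 1 to 3. The acetylcholine receptor subunit genes Chrna1 and Chrnb1 had log2 differences of 1.83 and 1.75. Chrng, the embryonic subunit, was not well above background in any young mouse and at least 2.50-fold brighter in aged mice. This fold sets the mean of aged mice against the dimmest signal that counted as well above background on each young array, or the probe's own where that was higher. Chrng is among the 6 genes with an unadjusted p under 0.05 in limma. It passed the filter on dim probes through the aged arrays alone, so nothing is read from its place in that count. Without aged mouse 1, Chrna1 (adjusted p = 0.0349) and Myog (adjusted p = 0.0365) also passed in limma. Over all genes the number past the threshold then rose from 53 to 199. All young mice were in row 1 of the slide and the remaining aged mice in row 2. Age and row cannot be told apart in that fit, so nothing is read from these calls.

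The list of Gadd45 regulators, partners and stress genes had 8 genes tested, with 0 past the adjusted threshold, 3 higher at an unadjusted p under 0.05 in limma, and a median of 0.23. Atf3, a stress transcription factor, had a log2 difference of 2.96 (standard error 0.79), and Cdkn1a, an inhibitor of cyclin-dependent kinases, of 1.85 (standard error 0.60). Trp53, the p53 gene, had 1.05, and Map3k4, the kinase that Gadd45 proteins activate, -0.27. The brightest Atf3 value was again that of aged mouse 3, at 4.27 against 1.56 and 1.57 in the other aged mice.

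In the Runx family and its partners, 9 genes were tested, 0 passed the adjusted threshold and 1 was lower at an unadjusted p under 0.05 in limma. That gene was Runx3 (-1.12), well above background on 3 young arrays and 1 aged array. Cbfb, the subunit Runx proteins bind DNA with, had a log2 difference of -0.51, Runx1t1, a corepressor, 0.45, and Tle2, a Groucho-type corepressor, -0.18. Among Dach2 relatives and the homeobox and Eya factors they act with, 0 of 9 genes passed the adjusted threshold and 2 were lower at an unadjusted p under 0.05 in limma. Among these was Dach1 (-0.93), the paralog of Dach2. Eya4, a transcriptional coactivator, had a log2 difference of 0.76 and Six4, a homeobox factor, -0.27.

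The Mef2 factors and their coregulators gave 8 genes to test, with 0 past the adjusted threshold and 0 at an unadjusted p under 0.05 in limma. The largest difference was that of the corepressor Ncor1 (0.91), whose other probes gave -0.15 and -0.40. Hdac3, the class I enzyme that gives class IIa complexes their activity, had 0.43, and the corepressor Ctbp1 had -0.12. The other histone deacetylases gave 7 genes and also 0 in both counts, with Hdac11 (0.38), Hdac8 (0.38), Hdac7 (-0.33) and Hdac10 (-0.26) at the ends. Of 7 partners of Ncam1, 0 passed the adjusted threshold in limma and St8sia4 (-0.57), a polysialyltransferase that modifies the Ncam protein, was lower at an unadjusted p under 0.05. Gfra1 (0.39), Prnp (0.17) and Fyn (-0.17) followed.

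**Figure D4:**
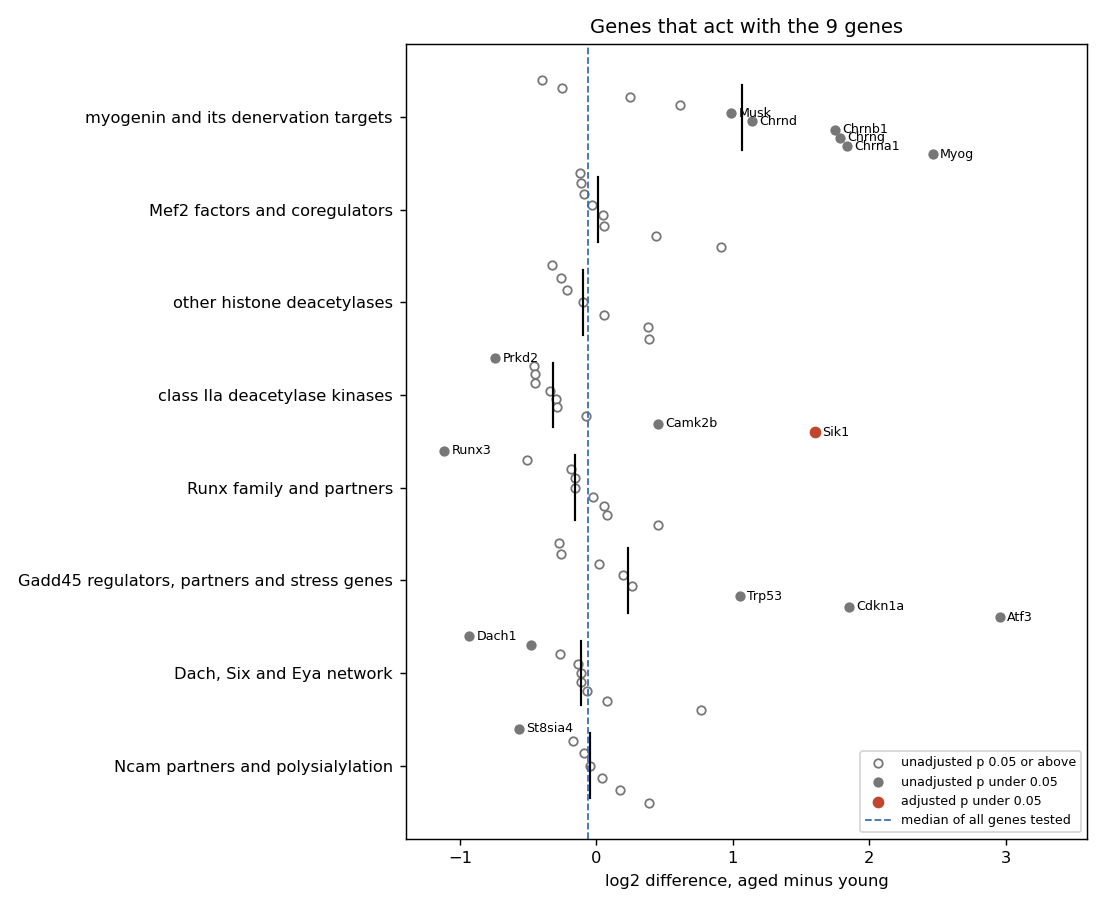
Log2 difference (aged minus young) of the 68 tested genes of the 8 lists, 1 row per list. Open points have an unadjusted p of 0.05 or above, grey points are under it, the red point (Sik1, 1.60) is the gene with an adjusted p under 0.05, black ticks are list medians and the dashed line is the median of all genes tested (-0.06). The named points of the myogenin list reach 2.47 and those of the Gadd45 list 2.96, while the largest of the Mef2 list is 0.91 (Ncor1) and of the other deacetylases 0.38.

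Cells other than fibres also use these genes. Runx1 is active in blood cells and Ncam1 in Schwann and satellite cells. Of 10 macrophage markers tested, 8 had a higher mean in aged mice. In limma, 4 of them had an unadjusted p under 0.05, against 6.07% of all genes, and 0 passed the adjusted threshold. Among the 4 was Fcgr1, which passed the filter on dim probes through the aged arrays alone, so nothing is read from its p. The summed signal of the list, in multiples of the 75th percentile, was 41.5 to 48.9 in young and 46.5 to 48.4 in aged mice, and no probe of Cd163 passed the filter. Its brightest marker, Itgam, went the other way, with a log2 difference of -0.26. The 5 lymphocyte markers tested all had a lower mean, Nkg7 being the brightest (-0.31), at 6.87 to 7.77 in young and 5.52 to 6.99 in aged mice in sum. Of the listed lymphocyte markers, Cd3d, Cd3g, Cd8a, Cd79a and Ms4a1 had no probe past the filter. Mast cell markers, 6 of 7 with a higher mean and Mcpt4 the brightest (0.39), summed to 4.22 to 5.92 in young and 5.80 to 7.86 in aged mice, and Ms4a2 had no probe past the filter. Schwann cell markers, 6 of 9 with a lower mean, summed to 24.9 to 45.0 in young and 25.1 to 41.9 in aged mice. One of them, the myelin gene Prx, was lower past the adjusted threshold (log2 difference -1.29, adjusted p = 0.0428 from limma). Another myelin gene, Mbp, went the other way by a similar amount (log2 difference 1.33, adjusted p = 0.0527 from limma). Neither gene was followed through the alternatives. Of 9 satellite cell and myoblast markers tested, 5 had a lower mean. The list summed to 95.7 to 136.9 in young and 107.5 to 128.2 in aged mice. Most of each sum was the signal of Itga7, the brightest (-0.15), so the sums say little about the other markers. At an unadjusted p under 0.05 in limma, 3 of the 9 were lower, against 8.36% of all genes, and 0 higher. Among the 3, Calcr was well above background on 3 young arrays and 1 aged array. Such counts were 5 lower and 1 higher for Schwann cell markers, and 0 lower and 2 higher for mast cell markers. No probe of Myf5 passed the filter. The part of these cells in the Runx1, Gadd45a and Ncam1 values was not tested.

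The genes with the most similar profile were found among 13835 other genes with a symbol, by the root mean square difference, over the 6 arrays, between deviations from each gene's own mean. For Runx1 these were Ttc9 (0.27 on the log2 scale), Clec4d (0.39), a C-type lectin receptor of myeloid cells, and Cdkn2a (0.41), the gene of the p16 and p19 cell cycle inhibitors. For Gadd45a they were Ccl6 (0.30), a chemokine, Ttc9 (0.30) and Clec4d (0.37), so Ttc9 and Clec4d stood near both. For Hdac4 they were Sbk1 (0.07), Rsf1 (0.09) and Dclre1c (0.10), and for Dach2, Tm6sf1 (0.07), Doxl2 (0.09) and Gm4736 (0.12). This ranking used the same arrays as the contrast that chose the 9 genes. Ttc9 and Clec4d had log2 differences of 2.55 and 2.60, close to those of Runx1 and Gadd45a. Nothing is therefore read from their place near both.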

How the data were processed

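Total RNA of gastrocnemius muscle was labelled with Cy3 and hybridized to single-colour Agilent mouse arrays, 1 per mouse. The authors deposited scanner tables from Feature Extraction (version 11.0.1.1 in the file headers, 9.5 in the submitters' processing notes). The intensity the authors deposited is the processed signal, corrected for background and for trends across an array with no scaling from array to array, and the values of the series matrix were identical. No source used here states a normalization or test for the arrays.

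Control and outlier spots (161 to 212 outliers per array) were left out. Replicate spots were averaged on the log2 scale and each array was centred on its 75th percentile. Of 55681 probes, 12 lacked a usable spot on some array and were dropped. RefSeq accessions (GRCm38.p6) gave names to 28341 probes. The array was designed on mm9, so no probe positions are given. A probe was kept if well above background on at least 3 of 6 arrays, and the brightest kept probe stood for its gene. Groups were compared with limma 3.58.1 (R 4.3.3), with p-values adjusted by Benjamini-Hochberg over 20900 genes, and the fit was tested on simulated data. For 3 mice against 3, an exact permutation p cannot go below 0.1. Standard errors of the 9 genes come from their group SDs, and those of other genes from limma. The number of arrays limits the precision.

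The 9 genes, the lists and the alternatives were chosen with earlier results of these data known. Genes named are the 9, those of a pathway list past the adjusted threshold or otherwise the 4 with the largest difference, the 3 nearest in profile to Runx1, Gadd45a, Hdac4 and Dach2, and the brightest marker of a list. Myh1, Mylpf, Camk2b, Camk2d, Prkd2, Prx, Mbp, Fcgr1, Calcr and the untested markers were named after their values were seen. The brightest endothelial, fibroblast and erythrocyte markers, Kdr, Dcn and Hba-a2, had log2 differences of -0.36, -0.85 and -0.91, and 3 of 9, 0 of 8 and 0 of 6 tested genes of those lists had a higher mean in aged mice. Some genes that this rule names are not reported here. Metabolite and RT-PCR measurements are not analysed here.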

Additional observations from a re-analysis of the deposited data

How the results depend on the processing

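Normexp used the median spot signal. Among the 9 genes, Runx1, Gadd45a, Gadd45b, Ncam1, Hdac4 and Hdac5 kept their direction under all 18 alternatives. None of these used the Ncam1 probe on NM_001113204 alone, which went the other way. Many of the alternatives could not have reversed a sign. Both filter settings, a mean-variance trend in limma and the replicate block left the differences of the 9 genes as reported. Runx1, Gadd45a, Gadd45b, Ncam1 and Hdac4 had separate groups. Leaving a mouse out or blocking on the row could not change their sign. With normexp the log2 difference was 2.07 for Runx1 and 0.31 for Hdac4, against 2.75 and 0.54 as reported. Blocked on the slide's row, Hdac5 came to -0.10, and Gadd45g (0.12), Hdac9 (0.090) and Dach2 (0.11) changed sign. Hdac9 ran from -1.42 (without young mouse 1) to 0.22 (without young mouse 3) when 1 mouse was left out, and Dach2 changed sign with the mean of all its probes (0.0046). Scaling to the median lowered the log2 difference of all genes by 0.147 at the median. Keeping saturated probes, of which there were 0, or starting from the series matrix gave identical values.

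The 53 genes past the threshold became 8 with no filter on dim probes (36710 genes tested), 35 when detection was required on every array (18551 tested) and 5 with the replicate block. With 1 mouse left out the number was 9 without young mouse 1, 8 without young mouse 2, 8 without young mouse 3, 199 without aged mouse 1, 9 without aged mouse 2 and 1 without aged mouse 3. Among the pathway genes, the 1 gene past the threshold became 0 under median scaling, no filter, the row as a block and the replicate block, and between 0 and 3 with 1 mouse left out. Replicate numbers did not pair the mice. The deviations of same-numbered mice correlated at -0.0625, -0.271 and 0.0277 across genes, so the replicate block, which left the differences of the 9 genes as they were, is not read as a weaker effect.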
